A study of Homo sapiens with 6 samples.

Results

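Aminoacyl-tRNA synthetases were followed in the established human myeloma line MM.1S after enzastaurin, a kinase inhibitor that acts on protein kinase C beta. The set held 35 genes: 19 cytosolic synthetases, 12 mitochondrial synthetases (suffix 2), 3 scaffold proteins of the multisynthetase complex (AIMP1, AIMP2 and EEF1E1) and XPOT, which exports tRNA from the nucleus. Members were taken from probe sets that the platform annotation pairs with exactly 1 gene symbol, and the probe set with the highest mean log2 signal stood for each gene. This gave 28 of the 35 genes a probe set. Cells were taken after 3, 6 or 12 h with enzastaurin, and untreated cells at the same times, with 1 array for each treatment and time, 6 arrays in all. The enzastaurin dose is not given in the sources used here, the controls are untreated rather than vehicle-treated, and the labels do not tell whether cultures were separate. The p-values therefore cover these 6 arrays alone, and the spread among them may be technical. With 1 array for each treatment and time, a change of the enzastaurin effect over time also counts as spread when the 3 times are pooled. All 9 plasma cell markers passed the filter on low intensity described below, at geometric means of 146 to 5647, and none of 8 T and NK cell or 6 monocyte markers did, all with geometric means below the filter threshold.

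Each synthetase joins an amino acid to its tRNA, and the ribosome reads the genetic code through these charged tRNAs. The cytosolic and mitochondrial enzymes are mostly encoded by different nuclear genes, although GARS1 and KARS1 each encode both forms, and several cytosolic enzymes sit together on the AIMP scaffold. Genes of cytosolic synthetases are known targets of the transcription factor ATF4, which is made when eIF2 alpha is phosphorylated during amino acid shortage or stress of the endoplasmic reticulum, as in secretory cells such as myeloma cells. ATF4 binds with C/EBP partners to C/EBP-ATF response elements.

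Because that element links part of the family to ATF4, the 250 bases before the annotated start (RefSeq, GRCh38.p14) were searched for TGATGNAA on both strands. Of 27305 genes with a promoter entry 3.89 percent held a match, and of the 23 members past the filter that had an entry 4 did: AARS1, GARS1 and IARS1 of 13 cytosolic genes and YARS2 of 8 mitochondrial genes. The match is in capitals below, read 5′ to 3′ on the gene's strand, and appears as its reverse complement where the element lies on the other strand. NARS2, the member with the lowest log2 ratio, is shown for comparison and held no match. For GARS1, 30 bases around the match are shown. A match describes these letters only.
AARS1 (chr16:70289507-70289756, minus strand): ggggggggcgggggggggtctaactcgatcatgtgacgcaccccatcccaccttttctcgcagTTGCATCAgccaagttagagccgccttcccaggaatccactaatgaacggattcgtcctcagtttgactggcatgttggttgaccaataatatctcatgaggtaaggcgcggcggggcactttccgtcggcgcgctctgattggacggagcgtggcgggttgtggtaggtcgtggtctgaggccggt
IARS1 (chr9:92293698-92293947, minus strand): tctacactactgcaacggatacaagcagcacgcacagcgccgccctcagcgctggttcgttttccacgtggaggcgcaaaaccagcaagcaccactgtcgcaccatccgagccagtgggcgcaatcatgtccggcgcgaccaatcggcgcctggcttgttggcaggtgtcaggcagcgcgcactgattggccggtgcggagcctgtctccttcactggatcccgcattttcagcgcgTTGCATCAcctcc
GARS1 (chr7:30594834-30594863, plus strand): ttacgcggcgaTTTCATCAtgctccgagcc
YARS2 (chr12:32755898-32756147, minus strand): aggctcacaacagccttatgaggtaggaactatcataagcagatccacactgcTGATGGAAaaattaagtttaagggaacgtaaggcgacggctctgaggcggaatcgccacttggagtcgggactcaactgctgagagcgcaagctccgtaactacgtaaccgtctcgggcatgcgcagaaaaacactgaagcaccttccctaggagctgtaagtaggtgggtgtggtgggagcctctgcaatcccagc
NARS2 (chr11:78574865-78575114, minus strand): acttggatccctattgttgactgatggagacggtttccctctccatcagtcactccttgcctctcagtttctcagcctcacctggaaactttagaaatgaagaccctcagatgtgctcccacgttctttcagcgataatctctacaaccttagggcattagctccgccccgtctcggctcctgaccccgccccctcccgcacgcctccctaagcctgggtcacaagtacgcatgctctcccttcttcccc

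The E-box CACGTG, which MYC and MAX bind, was found in 7.73 percent of genes with a promoter entry. Of the 23 members it was found in 1, IARS1. HARS1 and HARS2 lie head to head on chromosome 5 with 84 bases between their annotated starts, so the pair shares the stretch that precedes each gene. It is shown on the HARS2 strand because the 2 genes are compared below, and it held neither motif.
HARS1-HARS2 (chr5:140691371-140691454, plus strand): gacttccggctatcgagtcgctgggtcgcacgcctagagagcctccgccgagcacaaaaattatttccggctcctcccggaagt

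Values are Affymetrix MAS5 intensities as the authors scaled them, and ratios are log2 of enzastaurin over untreated cells at the same time. Genes were kept where the mean log2 intensity lay in the upper 50 percent of probe sets, a geometric mean of 63.3 or more. This left 6838 genes and 26 of the 28 measured members: 16 cytosolic, 8 mitochondrial, AIMP1 and XPOT. RARS2, the mitochondrial arginyl enzyme, at 4.89 to 17.9 on its 2 probe sets, and WARS2, the mitochondrial tryptophanyl enzyme, at 31.8 to 56.5, did not pass. MARS1 and QARS1 have probe sets that the annotation lists with several genes, and FARSB, PARS2, VARS2, AIMP2 and EEF1E1 were not analysed here. An Affymetrix intensity depends on the probes, so the level of 1 gene was not set against that of another.

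No synthetase passed the test in any of the 3 fits made across all 6838 genes. At 12 h all 8 mitochondrial enzymes had a log2 ratio below 0 in the values as deposited (7 of 8 with equal medians of the genes kept), beside 61.1 percent of all genes. Of the 16 cytosolic enzymes 10 were below 0 at that time. NARS2, the mitochondrial asparaginyl enzyme, had the lowest ratio. WARS1, SARS1 and CARS1, which charge tRNA with tryptophan, serine and cysteine, were the members with ratios above 0 at all 3 times. They were 3 of 26 members, beside 9.14 percent of all genes. Second probe sets were below 0 for WARS1 at 12 h (-0.42) and for CARS1 at 6 h (-0.48). These patterns are described below as values, since the sets were not tested as sets.

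**Figure D1:**
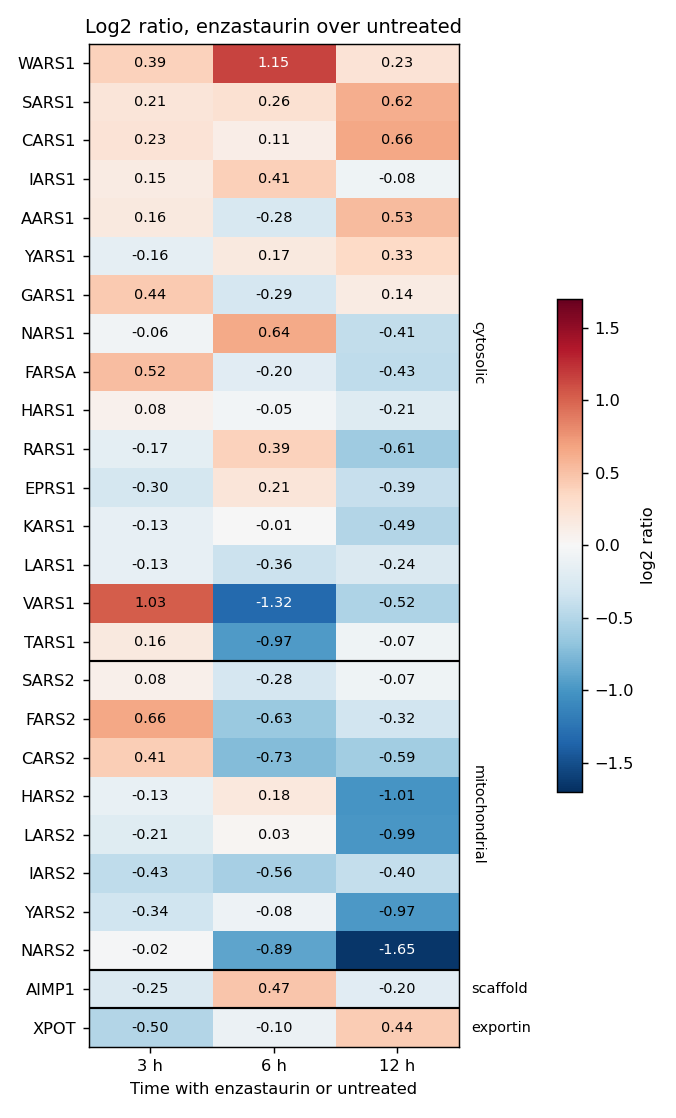
Log2 ratio of enzastaurin over untreated cells (colour and number) for the 26 members past the filter at 3, 6 and 12 h, 1 pair of arrays per column. The cytosolic rows hold both signs at every time, and the mitochondrial rows, in the values as deposited, are all below 0 at 12 h (7 of 8 with equal medians of the genes kept).

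The effect of enzastaurin over the 3 time-matched pairs was fitted with limma, with time as a block. Of all genes 0.0585 percent were called at an adjusted p under 0.05 (0.0292 percent higher and 0.0292 percent lower), and of the 26 members 0 were. At an unadjusted p under 0.05 there was 1 member, NARS2, beside 5.41 percent of all genes. Adjusted p-values of the members were 0.835 or more (limma), and the mean ratio was above 0 in 9 of them.

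The later pairs (6 h and 12 h) were also fitted alone, because the 3 h ratios ran apart from them in earlier results of these data. The p-values of this fit are therefore not independent of that choice and describe the later pairs. It called 3.61 percent of all genes and again 0 members, with 2 at an unadjusted p under 0.05 (15.9 percent of all genes), NARS2 and VARS1. The slope of the ratio per doubling of hours called 1.43 percent of all genes (0.512 percent upward and 0.921 percent downward) and 0 members, with the same 2 at an unadjusted p under 0.05 (11.0 percent of all genes). The members' adjusted p-values were 0.0611 or more at the later times and 0.360 or more for the slope. These counts do not show that the members stayed unchanged.

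Among the cytosolic enzymes, WARS1, known to be induced by interferon gamma, had intensities of 242, 443 and 297 with enzastaurin at 3, 6 and 12 h, against 184, 200 and 253 in untreated cells. The enzastaurin values at 6 h and 12 h lay above the untreated range and the 3 h value within it, so the groups overlapped. The mean log2 ratio was 0.59 (SD 0.49 over 3 pairs, SE 0.31, limma adjusted p = 0.980). Its second probe set had log2 ratios of 0.35, 0.24 and -0.42, so the sign at 12 h depended on the probe set.

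SARS1, the cytosolic seryl enzyme, had 312, 362 and 571 on the enzastaurin arrays, against 271, 303 and 372 on the untreated arrays, with both series higher at later times. Its mean log2 ratio was 0.36 (SD 0.23, SE 0.29). CARS1, the cysteinyl enzyme, had 2290, 1896 and 2977 on the enzastaurin arrays, against 1950, 1756 and 1888 on the untreated arrays. The groups overlapped in both genes, and the largest log2 ratios, 0.62 for SARS1 and 0.66 for CARS1, were those at 12 h. A second CARS1 probe set had 0.85, -0.48 and 1.14. Of all genes 9.14 percent had ratios above 0 at all 3 times, as these 3 of 26 members did.

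AARS1, the alanyl enzyme, whose promoter holds the response element shown above, had 1355, 1357 and 1994 on the enzastaurin arrays, against 1209, 1646 and 1377 on the untreated arrays. Only its 12 h enzastaurin array lay above the untreated range. IARS1, the isoleucyl enzyme of the multisynthetase complex and also a holder of the element, had 1923, 1782 and 1887 on the enzastaurin arrays, against 1739, 1342 and 1993 on the untreated arrays. The low value was the 6 h untreated array. YARS1, the tyrosyl enzyme, had 1137, 785 and 1248 on the enzastaurin arrays, against 1269, 699 and 990 on the untreated arrays, with the 6 h array lowest on both sides. The mean log2 ratios were 0.14 for AARS1, 0.16 for IARS1 and 0.11 for YARS1, each smaller than the SD over the 3 pairs for AARS1 (0.41), IARS1 (0.24) and YARS1 (0.25). GARS1, the glycyl enzyme and the remaining cytosolic holder of the element, ranged from 651 to 1428 with enzastaurin and from 795 to 1132 in untreated cells (mean log2 ratio 0.10, SD 0.37).

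NARS1, the cytosolic asparaginyl enzyme, had 2025, 2041 and 1492 on the enzastaurin arrays, against 2115, 1308 and 1989 on the untreated arrays, a crossing order with log2 ratios of -0.06, 0.64 and -0.41. HARS1, the cytosolic histidyl enzyme, had 337, 330 and 285 on the enzastaurin arrays, against 319, 342 and 331 on the untreated arrays. Its log2 ratio of largest size was that at 12 h, -0.215. FARSA, the catalytic subunit of the phenylalanyl enzyme, had 522, 474 and 389 on the enzastaurin arrays, against 364, 544 and 525 on the untreated arrays. Here the 3 h pair ran opposite to the later pairs, with log2 ratios of 0.52, -0.20 and -0.43. A second FARSA probe set had 1.62, 0.31 and -0.46, so its 6 h pair had the sign of the 3 h pair.

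LARS1, the leucyl enzyme that also senses leucine for mTORC1, had 66.0, 62.1 and 61.8 on the enzastaurin arrays, against 72.4, 79.7 and 73.2 on the untreated arrays. The groups did not overlap, but the probe set lay near the filter threshold and is of the kind that Affymetrix marks as open to cross-hybridisation, so its ratios are uncertain. The lysyl enzyme KARS1 was the other cytosolic gene with ratios below 0 at all 3 times (-0.13, -0.01 and -0.49), at 1285 to 1868 with enzastaurin and 1316 to 2051 in untreated cells. A second KARS1 probe set had 0.17, -0.73 and -0.69, so the 3 h sign depended on the probe set.

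VARS1, the valyl enzyme, had the widest spread between pairs, with log2 ratios of 1.03, -1.32 and -0.52. It ranged from 320 to 541 with enzastaurin and from 248 to 800 in untreated cells, where the 3 h array was the low one. Its mean log2 ratio was -0.27 (SD 1.19), and -0.92 at 6 h and 12 h (SE 0.32, limma adjusted p = 0.136). A second VARS1 probe set had log2 ratios of 0.65, 0.09 and -0.36, smaller in size at each time.

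TARS1, the threonyl enzyme, had log2 ratios of 0.16, -0.97 and -0.07 and was lowest, at 411, on the 6 h enzastaurin array. RARS1, the arginyl enzyme, had -0.17, 0.39 and -0.61. EPRS1, which charges tRNA with both glutamate and proline, had -0.30, 0.21 and -0.39. Its 3 probe sets disagreed at 6 h, at 0.21, -0.40 and 0.31, and at 12 h, at -0.39, -0.35 and 0.87. At the 2-fold level, 1 cytosolic gene was higher at 3 h (VARS1), 1 higher and 1 lower at 6 h (WARS1 and VARS1), and none of the 16 either way at 12 h. The background was 1.89 percent of all genes higher at 3 h, 5.60 percent higher and 3.22 percent lower at 6 h, and 3.88 percent higher and 10.4 percent lower at 12 h.

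Outside the enzymes, AIMP1, a scaffold protein of the multisynthetase complex, had log2 ratios of -0.25, 0.47 and -0.20 and ranged from 683 to 742 with enzastaurin and from 537 to 855 in untreated cells, where the 6 h array was lowest. XPOT, the tRNA exportin, had -0.50, -0.10 and 0.44. Its slope per doubling of hours was 0.47 (SE 0.30, limma adjusted p = 0.598). Neither gene had ratios of 1 sign at all 3 times.

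NARS2 had intensities of 203, 120 and 79.1 with enzastaurin at 3, 6 and 12 h, against 206, 222 and 248 in untreated cells. The 3 h pair was nearly equal, the later enzastaurin arrays were lower, and the groups did not overlap. Its log2 ratios were -0.02, -0.89 and -1.65 (mean -0.85, SD 0.82, SE 0.35, limma adjusted p = 0.835). At 6 h and 12 h the log2 ratio was -1.27 (SE 0.36, limma adjusted p = 0.0611). That p crossed the threshold in 5 of 9 alternative settings, where it ran from 0.0144 to 0.0848, so the call depends on the processing. Over the 3 pairs NARS2 was not called in any alternative. The gene was measured by a single probe set.

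IARS2, the mitochondrial isoleucyl enzyme, had 782, 720 and 766 on the enzastaurin arrays, against 1054, 1060 and 1012 on the untreated arrays. The groups did not overlap and the 3 pairs were alike, with log2 ratios of -0.43, -0.56 and -0.40 (mean -0.46, SD 0.08). The moderated SE of 0.25, which borrows from genes of like intensity, gave a limma adjusted p of 0.980. With LARS1 and NARS2 it made 3 of 26 members whose enzastaurin arrays all lay below the untreated ones, beside 7.18 percent of all genes. No member had all its enzastaurin arrays above the untreated ones, beside 3.47 percent of all genes.

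YARS2, the mitochondrial tyrosyl enzyme, had 234, 207 and 143 on the enzastaurin arrays, against 296, 220 and 280 on the untreated arrays, lower in each pair and most so at 12 h (log2 ratio -0.97). With NARS2, IARS2, KARS1 and LARS1 it was 1 of 5 members with ratios below 0 at all 3 times, beside 14.2 percent of all genes. Its promoter holds a match to the response element, so genes with the match had mean ratios on both sides of 0.

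**Figure D2:**
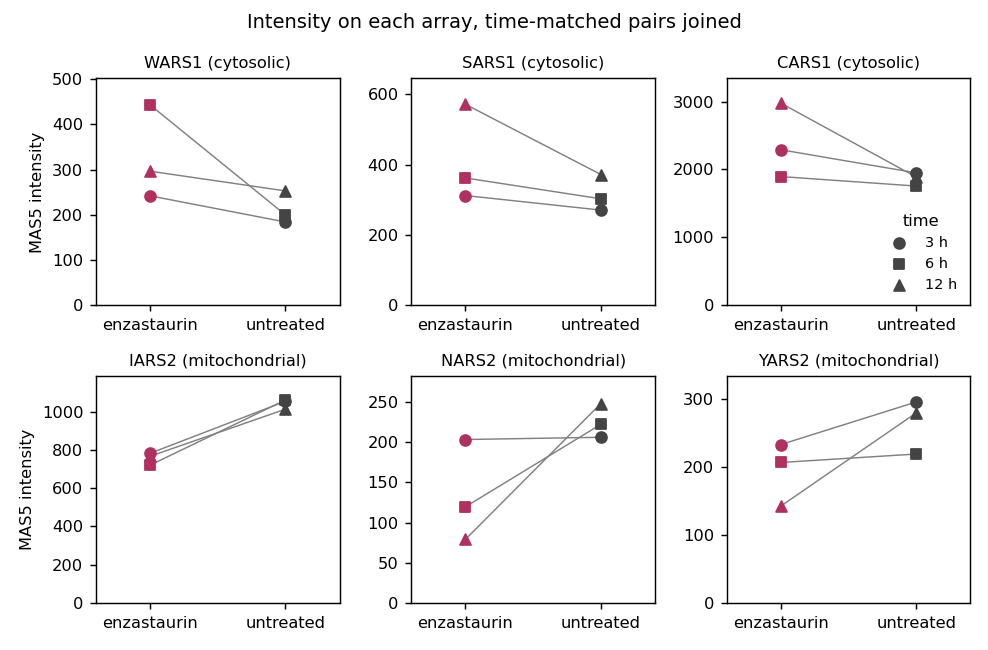
MAS5 intensity (linear axis from 0) of the 3 cytosolic genes with ratios above 0 at all 3 times and of the 3 mitochondrial genes with ratios below 0 at all 3 times, enzastaurin beside untreated, time-matched arrays joined. For NARS2 the 3 h arrays are nearly equal (203 and 206) and the later enzastaurin arrays lower, while IARS2 is lower by a like amount in each pair.

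HARS2, the mitochondrial histidyl enzyme, had 196, 145 and 98.3 on the enzastaurin arrays, against 214, 128 and 198 on the untreated arrays. LARS2, the mitochondrial leucyl enzyme, had 137, 117 and 91.7 on the enzastaurin arrays, against 158, 114 and 182 on the untreated arrays. In both the difference was that of the 12 h pair, at -1.01 and -0.99 on the log2 scale. The LARS2 log2 ratios were -0.21, 0.03 and -0.99, and those of its second probe set -0.21, -0.19 and -1.09, so the sign at 6 h depended on the probe set.

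CARS2, the mitochondrial cysteinyl enzyme, had 361, 208 and 242 on the enzastaurin arrays, against 271, 346 and 366 on the untreated arrays. FARS2, the mitochondrial phenylalanyl enzyme, had 114, 66.4 and 85.4 on the enzastaurin arrays, against 71.8, 103 and 107 on the untreated arrays. In both the 3 h enzastaurin array was above its partner and the later arrays below theirs, with mean log2 ratios of -0.30 (CARS2, SD 0.63) and -0.10 (FARS2, SD 0.68). A second FARS2 probe set past the filter had 0.71, 0.02 and -0.52. SARS2, the mitochondrial seryl enzyme, had 90.3, 62.3 and 68.7 on the enzastaurin arrays, against 85.2, 75.6 and 72.3 on the untreated arrays, near the filter, and its groups overlapped.

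The order of signs in CARS2 and FARS2, above 0 at 3 h and below 0 at both later times, was also that of SARS2, FARSA, HARS1, TARS1 and VARS1. These 7 of 26 members compare with 19.6 percent of all genes. Second probe sets of FARS2, FARSA and VARS1 were above 0 at 6 h and did not have this order. Array measures moved the same way: mean log2 intensity of 18S ribosomal RNA probe sets was 9.99, 3.79 and 3.02 with enzastaurin at 3, 6 and 12 h, against 3.39, 11.98 and 9.29 in untreated cells. The log2 ratio of 3′ to 5′ ACTB probe sets was 2.0, 0.57 and 0.86 on the enzastaurin arrays, against 1.89, 1.16 and 1.60 on the untreated arrays. Their part in these ratios was not tested beyond fits of the 3 pairs with each as a covariate, where 0 members passed in limma. With the ACTB ratio as a covariate the log2 ratio of NARS2 was -0.16 and that of CARS2 0.23.

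Cytosolic and mitochondrial enzymes were then set side by side. The median log2 ratio of the 16 cytosolic genes was 0.15, 0.05 and -0.15 at 3, 6 and 12 h. That of the 8 mitochondrial genes was -0.07, -0.42 and -0.78, and that of all 6838 genes -0.04, 0.06 and -0.18. Cytosolic minus mitochondrial medians were thus 0.23, 0.47 and 0.64, with a mean of 0.44 (SD 0.20 over 3 pairs). The difference had 1 sign in each pair and rose with time in these values, so the SD includes that rise and is no replicate error. The difference has no test here. With the median over probe sets it was 0.18 at 6 h, and without a filter it was 0.23 at 6 h and 0.35 at 12 h. As medians of the fitted 3-pair log2 ratios, the classes differed by 0.36, by 0.20 with the ACTB covariate and by 0.40 with the ribosomal RNA covariate. With the ACTB covariate the cytosolic median was 0.08 and the mitochondrial median -0.12, with 5 of 8 mitochondrial genes below 0 against 8 of 8 without a covariate.

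Counted by sign, 10, 8 and 6 of the 16 cytosolic genes were above 0 at 3, 6 and 12 h, beside 46.4, 54.4 and 38.9 percent of all genes. Of the 8 mitochondrial genes 5, 6 and 8 were below 0, beside 53.6, 45.6 and 61.1 percent. At 12 h 2 mitochondrial genes were at least 2-fold lower, NARS2 and HARS2, with LARS2 and YARS2 just short of 2-fold. Of all genes 10.4 percent were that much lower at 12 h, and these made up 72.9 percent of all 2-fold differences at that time. With equal medians of the genes kept that share was 49.7 percent. At 3 h it was 58.4 percent as deposited and 46.9 percent after quantile normalization, and at 6 h 36.5 percent as deposited and 50.5 percent once all probe sets were scaled to 1 median.

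The sign of the cytosolic median at 6 h and 12 h depended on the scaling or probe set summary, and that of the mitochondrial median did not. At 6 h the cytosolic median was -0.05 with equal medians over all probe sets, and -0.12 when probe sets of a gene were summarised by the median. It stayed above 0 with equal medians of the genes kept (0.02) and after quantile normalization (0.03). At 12 h it stayed below 0 with equal medians over all probe sets (-0.19). With equal medians of the genes kept, the median of all genes at 12 h was 0.02 in place of -0.18. The cytosolic median was then 0.05, with 8 of 16 genes above 0, and the mitochondrial median -0.59, with 7 of 8 below 0. After quantile normalization the cytosolic median was 0.05 and the mitochondrial median -0.63. Relative to the median of all genes, 8 of 16 cytosolic and 7 of 8 mitochondrial genes lay lower at 12 h. The classes also differed in probe signal, which does not rank the amounts of RNA. The probe sets of 15 of the 16 cytosolic genes lay above a geometric mean of 247, the midpoint of all genes ranked by intensity, and those of 6 of the 8 mitochondrial genes below it. Over all genes the median log2 ratio at 12 h was -0.02 and -0.19 in the lower 2 of 4 equal intensity classes and -0.24 and -0.23 in the upper 2. The part of intensity in the class difference was not tested.

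**Figure D3:**
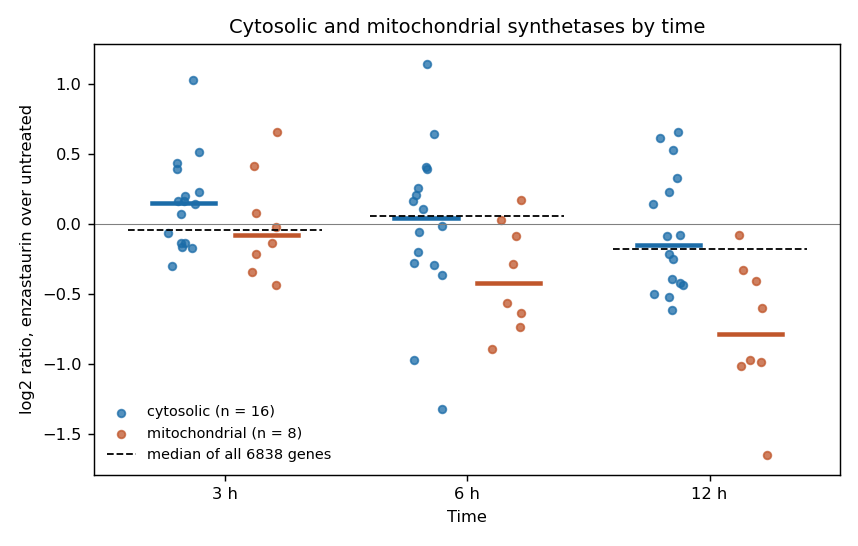
Log2 ratio of enzastaurin over untreated cells for each cytosolic and mitochondrial synthetase at 3, 6 and 12 h, with solid bars at the class medians and a dashed line at the median of all 6838 genes. The cytosolic median lies at 0.15, 0.05 and -0.15, and the mitochondrial median at -0.07, -0.42 and -0.78.

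All 8 mitochondrial genes have a cytosolic partner for the same amino acid past the filter. The cytosolic partner had the higher log2 ratio in 5 of 8 pairs at 3 h, 6 of 8 at 6 h and 7 of 8 at 12 h, with median differences of 0.10, 0.49 and 0.77. NARS1 minus NARS2 was the largest on average, at -0.04, 1.54 and 1.23 (mean 0.91, SD 0.84). CARS1 minus CARS2 was -0.18, 0.84 and 1.25 (mean 0.64, SD 0.74). In both the 3 h difference was below 0 and the later ones above it. The SD over the pairs was close to the mean for asparagine and larger than the mean for cysteine.

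IARS1 minus IARS2 was 0.58, 0.97 and 0.32 (mean 0.62, SD 0.33). SARS1 minus SARS2 was 0.12, 0.54 and 0.69 (mean 0.45, SD 0.29). Each was above 0 at all 3 times with a mean above its SD, which is over times and not replicates. YARS1 minus YARS2 was also above 0 throughout, at 0.18, 0.25 and 1.31, but its SD (0.63) was larger than its mean (0.58). HARS1 minus HARS2, the pair that shares the 84 bases shown above, was 0.21, -0.23 and 0.79. LARS1 minus LARS2 was 0.08, -0.39 and 0.74, with the uncertainty of the LARS1 probe set. FARSA minus FARS2, at -0.14, 0.44 and -0.11, was the exception at 12 h. These differences have no test.

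**Figure D4:**
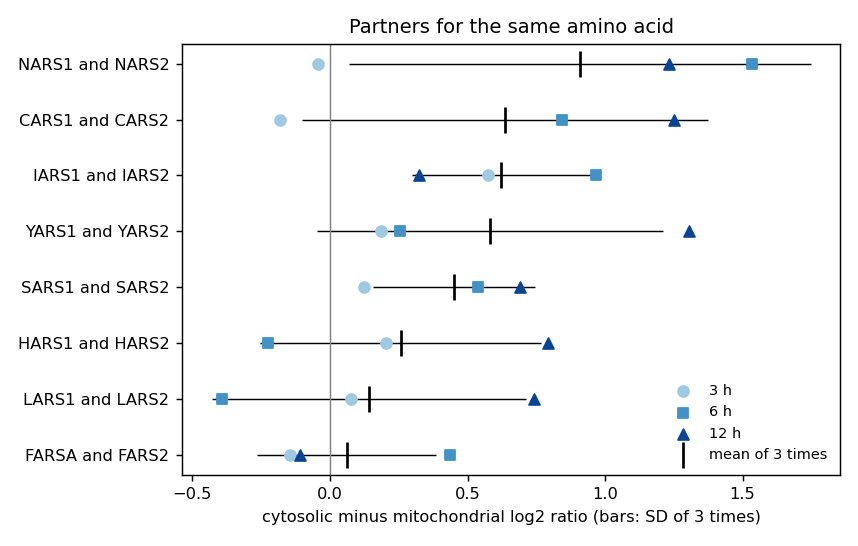
Difference of log2 ratios, cytosolic minus mitochondrial partner, for 8 amino acids at 3, 6 and 12 h, with the mean and SD of the 3 times. At 12 h every pair but FARSA and FARS2 lies above 0, and the pairs of isoleucine, serine and tyrosine lie above 0 at all 3 times.

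The cytosolic synthetases, with medians of 0.15, 0.05 and -0.15, lay below a list of 30 amino acid response genes outside the synthetases. Of these genes 27 passed the filter, with median log2 ratios of 0.42, 0.54 and 0.65. Their direction was seen in these data before the list was made, so it is no independent evidence. Over the 3 pairs 0 of the 27 were called in limma (adjusted p of 0.120 or more). In the fit of 6 h and 12 h, which had no array covariate, 3 were called higher (1.54 percent of all genes) and 1 lower (2.08 percent). Those higher were DDIT3, which encodes CHOP (log2 ratio 1.53), the mTORC1 inhibitor DDIT4 (1.66) and the transporter subunit SLC3A2 (1.30), and the one lower was its partner SLC7A5 (-1.84), with limma adjusted p-values of 0.0250, 0.0145, 0.0204 and 0.00379.

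SLC7A11, the cystine transporter, was called with an upward slope of 1.41 (limma adjusted p = 0.0429). ATF4 itself had intensities of 3170, 1732 and 2173 on the enzastaurin arrays, against 2209, 1644 and 1930 on the untreated arrays. ASNS, asparagine synthetase, had 474, 648 and 881 on the enzastaurin arrays, against 498, 466 and 452 on the untreated arrays. At 12 h NARS1 and NARS2, which charge tRNA with the product of ASNS, had log2 ratios of -0.41 and -1.65, beside 0.96 for ASNS. The glutathione-degrading enzyme CHAC1 had the largest mean log2 ratio of the list, 2.65 (SE 0.60, limma adjusted p = 0.281 over the 3 pairs).

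No gene of the next lists was called in limma. Of 14 mitochondrial translation factors 6 passed the filter, with median log2 ratios of -0.05, -0.49 and -0.30. The largest mean among them was that of TSFM, the mitochondrial elongation factor Ts, at -0.44, from log2 ratios of -0.11, -0.19 and -1.03. MTIF2, a mitochondrial initiation factor, had a mean of -0.32, and LRPPRC, which stabilises mitochondrial mRNA, -0.31. Of 11 cytosolic elongation and termination factors 8 passed, with medians of -0.06, -0.01 and -0.22. Neither list had a member at an unadjusted p under 0.05 in any of the 3 limma fits.

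Of 39 genes that process or modify tRNA 29 passed, with medians of -0.03, 0.15 and -0.40. At 12 h 24 of the 29 were below 0, beside 61.1 percent of all genes. None was called in limma, with 0, 2 and 4 at an unadjusted p under 0.05 over the 3 pairs, at the later times and for the slope. The shares of all genes were 5.41, 15.9 and 11.0 percent. RPP40, a subunit of ribonuclease P and MRP, came nearest in the fit of 6 h and 12 h, at 1.12 (SE 0.32, limma adjusted p = 0.0648), and had -0.79 at 3 h. TRIT1, a tRNA isopentenyl transferase, had a mean log2 ratio of -0.41, and ELAC2, which trims the 3′ ends of tRNA, -0.38. MYC, which activates many genes of translation, had 1212, 1974 and 499.9 on the enzastaurin arrays, against 1911, 2847 and 2123 on the untreated arrays. It was called lower in the fit of 6 h and 12 h (log2 ratio -1.31, SE 0.31, limma adjusted p = 0.0238), which had no array covariate.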

How the data were processed

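The authors deposited linear probe set intensity values that come from MAS5 (per the submitters' processing notes), for 6 arrays. Its version, scaling target and detection calls are not stated here. The arrays' number limits precision. Of 22277 probe sets, 19064 were paired with 1 gene symbol, 1043 with several and 2108 were not listed, beside 62 controls. Symbols were updated through 19052 identifiers in RefSeq's table.

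Intensities were floored at 1 and log2 transformed. The brighter 50 percent of probe sets by mean log2 were used, 1 per gene. Fits used limma 3.58.1 in R 4.3.3 (lmFit, eBayes with an intensity trend), time as a block, and Benjamini-Hochberg adjustment over 6838 genes at 0.05. The 3-pair fit has 2 residual degrees of freedom and a prior of 9.26. The 6 h and 12 h fit has 1 and 16.9, and the slope 1 with an infinite prior. With an infinite prior, the slope p-values use the variance trend over all genes and not a gene's own spread. The code was tested on simulated data. The 6 h and 12 h fit was chosen with earlier results of these data known, and the classes of intensity were added after the values were seen.

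Members and lists were chosen with earlier results of these data known. Values on every array are given for members past a test, the 6 highest and 6 lowest mean ratios, and same-amino-acid partners. Other lists are shown by up to 3 of the largest mean ratios and by called genes, with ATF4, DDIT3, ASNS and MYC always included.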

Additional observations from a re-analysis of the deposited data

How the results depend on the processing

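Over the 3 pairs limma called 4 genes. It called 1 with equal medians of all probe sets, 1 with quantile normalization, 1 without a filter, 2 with no replicate block for time, 19 with the ACTB covariate and 74 with the ribosomal RNA covariate. Without an intensity trend it called 0, with 360 at an unadjusted p under 0.05. Leaving out 1 pair gave 0 to 247 genes: 247 without the 3 h pair, and 0 without the 6 h pair (169 at an unadjusted p under 0.05) or the 12 h pair (134). No member was called in any of these. The fit of 6 h and 12 h called 247 genes. It called 548 with equal medians of the genes kept, 564 without a filter, 372 when probe sets of a gene were summarised by the median, 150 in the upper 25 percent, 133 without a trend and 135 with no replicate block. In it 1 member, NARS2, was called with equal medians of the genes kept, quantile normalization, no filter, log2(intensity + 16) or the median over probe sets, against 0 as reported. The slope called 98 genes, 167 with equal medians of all probe sets, 151 without a filter, and 0 with equal medians of the genes kept (675 at an unadjusted p under 0.05) or quantile normalization (722), and no member in any. The cause of these moves was not tested. Without either later pair the 6 h and 12 h fit and the slope leave no residual degrees of freedom and were not run.

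The mean difference of cytosolic minus mitochondrial medians, 0.44, stayed above 0 and within its SD under the 11 alternatives, from 0.27 without a filter, which adds RARS2 and WARS2, to 0.56 in the upper 25 percent, where 3 mitochondrial genes are left. Settings with equal medians shift all genes of an array alike, so they could not move this difference. Leaving out a pair gave 0.35 to 0.55. With all 3 differences above 0, that step could not change the sign or move the mean beyond its SD. The 2 array covariates were not among these 11. Added after seeing the data for the medians of fitted ratios, they gave 0.40 (ribosomal RNA) and 0.20 (ACTB), against 0.36 without a covariate, a move of over 1.5 times with ACTB. Of the 26 members 11 kept the sign of the 3-pair mean ratio under every alternative in which they passed the filter, and 15 did not. The setting with every probe set was left out of this count. Among the 11 were WARS1, SARS1, CARS1, IARS2, NARS2 and YARS2. NARS2 was not in the upper 25 percent, and its log2 ratio ran from -1.27 to -0.16 over the settings. Of 9 members with over 1 probe set past the filter, the mean ratios had 1 sign in 4 and differed in sign in 5, namely AIMP1, EPRS1, FARS2, FARSA and VARS1. Low signal limits SARS2, LARS1 and FARS2, which lie near the filter. The 12 h enzastaurin values of NARS2 (79.1), LARS2 (91.7) and HARS2 (98.3) were also low, beside a filter threshold of 63.3.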

Other observations

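The factors that set the level of tRNA and its use were also followed. Of 12 eIF2 alpha kinases, eIF2 subunits and eIF2B subunits 10 passed the filter, with median log2 ratios of 0.19, -0.24 and -0.58 at 3, 6 and 12 h, and 8 were below 0 at 12 h, beside 61.1 percent of all genes. EIF2S1, which encodes the alpha subunit of eIF2, had log2 ratios of -0.21, -0.38 and -0.93, and EIF2B5, the catalytic subunit of its exchange factor, 0.10, -0.54 and -1.05. EIF2AK2, the kinase activated by double-stranded RNA, had -0.45, 0.01 and -0.49. None of the 10 was called in limma. Those at an unadjusted p under 0.05 numbered 0 over the 3 pairs, 2 at the later times and 1 for the slope, beside 5.41, 15.9 and 11.0 percent of all genes.

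Of 20 genes of RNA polymerase III, which transcribes tRNA genes, 13 passed, with medians of -0.04, -0.05 and -0.35, and limma called none. At an unadjusted p under 0.05 there were 0, 1 and 0 over the 3 pairs, at the later times and for the slope. The shares of all genes were 5.41, 15.9 and 11.0 percent. GTF3A, the factor for 5S RNA genes, had log2 ratios of 0.37, -0.90 and -0.54, and the subunit genes POLR3B and POLR3E had -1.04 and -0.69 at 12 h. EIF5A, an elongation factor that carries hypusine, had intensities of 1227, 1494 and 1485 on the enzastaurin arrays, against 453, 3177 and 1012 on the untreated arrays, and its 3 log2 ratios of 1.44, -1.09 and 0.55 shared no sign.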
